A study of Mus musculus with 103 samples.

Results

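The Wnt ligands, their receptors and their secreted inhibitors were followed through 103 Affymetrix mouse arrays. Members were the probe sets annotated to 1 gene whose symbol begins with Wnt, Fzd, Sfrp or Dkk and a number, or is Frzb, Dkkl1, Wif1, Lrp5 or Lrp6. The rule used names alone and no measured value, and it found 59 of 22690 probe sets, for 41 of the 12394 genes with a probe set of their own. They comprised 23 probe sets of 19 Wnt ligands, 17 of 9 Frizzled receptors, 3 of the 2 Lrp co-receptors, 9 of 5 secreted Frizzled-related proteins (Sfrp1, Sfrp2, Sfrp4, Sfrp5 and Frzb), 6 of 5 Dickkopf genes and 1 of Wif1. The series asked how well labelling protocols profile very small amounts of RNA or few sorted cells. Total RNA of 8 tissues from a commercial panel (labelled brain, embryo, heart, kidney, liver, lung, ovary and spleen) gave 2 arrays per tissue: 1 made with the standard one-cycle protocol of Affymetrix and 1 ug of RNA, and 1 with BIIB, a protocol for small amounts, and 500 pg. A further 58 arrays held a commercial universal mouse RNA. Of these, 4 were one-cycle arrays of 1 ug, and BIIB had 4 arrays at each of 5 ng, 1 ng, 500 pg, 100 pg, 50 pg and 10 pg. The two-cycle, Ovation and RiboAmp HS kits had 2 arrays at each of 500 ng, 50 ng, 5 ng, 500 pg and 50 pg. T and B cells sorted from the spleen cells of a single normal mouse were mixed at 6 ratios and labelled by BIIB, on 12 arrays of 100 cells (2 per ratio) and 6 arrays of 500 cells (1 per ratio). Cultured cells named RAW267 in the labels were sorted at 50, 500, 1000, 5000 and 10000 cells (2 arrays each) and at 100 cells (1 array), and labelled by BIIB. The labels give no strain, age, sex or treatment. Replicate arrays of universal RNA share 1 RNA, and the lymphocytes share their donor, so their p-values measure the spread between labellings or sorted samples and not between animals.

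Wnt proteins are secreted, lipid-modified ligands that bind Frizzled receptors together with the co-receptors Lrp5 and Lrp6. In the canonical branch this binding stabilises beta-catenin, which then acts with Tcf and Lef factors on target genes, while other branches control cell polarity and movement. Secreted Frizzled-related proteins and Wif1 bind the ligands outside the cell, and some Dickkopf proteins block the Lrp co-receptors. Wnt4 is known for its role in the development of the ovary and the kidney, Wnt2 for that of the lung, Wnt7a and Wnt7b for the nervous system, and Wnt11 for the heart.

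The deposited MAS5 signals were scaled to 1 trimmed mean of 2501 on every array, and values below are signals on that scale. A signal depends on its probe set, so levels are compared only within a probe set. Tests used log2(signal + 125), which understates changes of dim genes, and probe sets with a mean signal of at least 500 over the arrays of a comparison. A probe set was called with an adjusted p under 0.05 (limma, Benjamini-Hochberg over all probe sets tested) and a change of at least 2-fold. Most members were dim: at a signal of 500 on both arrays of a tissue, the count of members ranged from 2 of 59 (3.39%) in spleen to 17 of 59 (28.8%) in lung and ovary, while 41.7 to 49.7% of all probe sets reached it. In the tissues 21 probe sets of 15 genes passed the filter, and a gene that is bright in a single tissue passed through that tissue. In every comparison a member that is bright in 1 of the groups alone likewise passed through that group, so the direction of such a call is partly set by the filter. They were 4 of the 23 ligand probe sets, 7 of the 17 Frizzled, 2 of the 3 Lrp, 6 of the 9 secreted Frizzled-related and 2 of the 6 Dickkopf probe sets. The other 38 had mean signals between 42.5 and 493.5.

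The tissue labels matched their marker genes except for 2. The summed signal of 5 brain markers was 871 to 1480 on the arrays labelled brain and 273450 to 493814 on those labelled liver. The summed signal of 6 liver markers was 1015 to 1324 on the arrays labelled liver, and it was higher on both arrays labelled brain than on any other array. Both protocols showed this. These arrays are therefore named by their labels ("the arrays labelled brain"), and directions drawn from them hold for the labelled arrays. Comparisons of the other 6 tissues use them only as part of the mean of the other tissues. Stromal markers differed between tissues as well: the summed signal of 6 fibroblast genes was 489848 to 600306 in embryo, 202695 to 233308 in ovary, 178421 to 188642 in heart and 159246 to 206996 in lung, against 49333 to 52309 in spleen, 50255 to 53446 on the arrays labelled brain, 29248 to 29782 in kidney and 17505 to 22130 on the arrays labelled liver. Their part in the tissue differences of the Wnt genes was not tested, and in tissue RNA more cells of a type and more RNA per cell cannot be told apart.

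**Figure D1:**
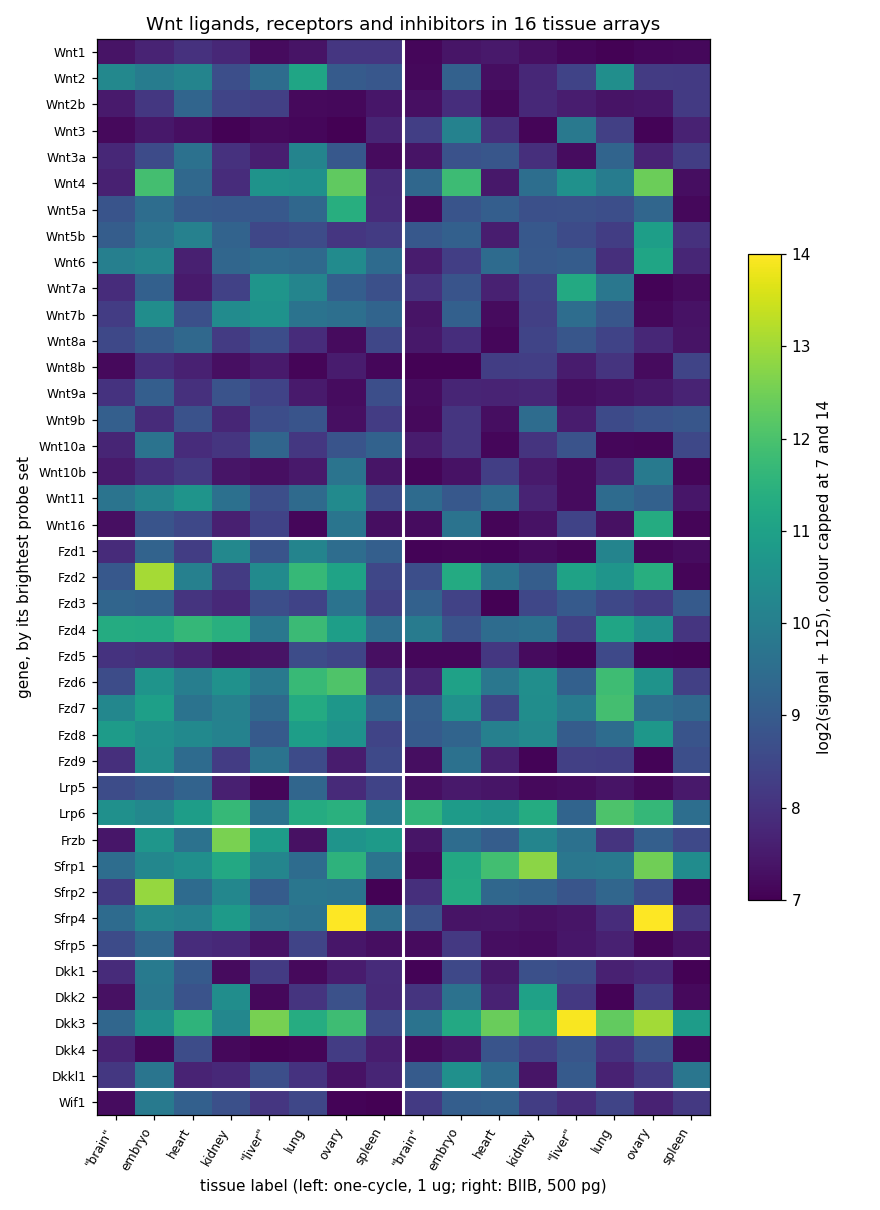
Colour gives log2(signal + 125) of the 41 member genes, by the brightest probe set of each, on the 8 one-cycle (left) and 8 BIIB (right) tissue arrays, with families separated by white lines. Few cells are bright: Sfrp4 stands out in ovary on both protocols, and most ligand rows stay dark throughout.

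Each tissue was set against the average of the remaining 7, with protocol as a covariate over the 16 arrays, so that each tissue rests on 2 arrays. No tissue has replicate labellings, so the spread behind the SE and p-values is how unevenly the 2 protocols differed across tissues. In ovary 5 of 21 members were called higher and none lower, against 8.83% of all probe sets called higher and 6.59% lower. In lung 7 were called higher (12.4% of all probe sets) and 2 lower (9.00%), in embryo 5 higher and none lower (10.3% of all probe sets higher, 5.71% lower), in kidney 4 higher and 2 lower (23.0% of all called), and in heart 1 higher and 3 lower (22.6%). In spleen none was called higher and 12 were called lower, against 19.5% of all probe sets lower and 34.2% in either direction. The arrays labelled brain had none higher and 10 lower (24.0% of all lower), and those labelled liver 2 higher and 3 lower (34.7% of all called). The median change of the tested members was 0.91 in ovary (0.17 over all probe sets tested), 0.54 in lung (0.05), -1.25 in spleen (-0.06) and -0.94 on the arrays labelled brain (-0.42), on the log2 scale. Of the 21 tested members 20 (95.2%) were called in at least 1 tissue, against 72.6% of all 15180 probe sets tested. The exception was Wnt6.

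With 2 arrays a tissue, many calls rested on 1 array. Without its one-cycle array the count fell to 4 on the arrays labelled brain, to 1 in embryo, to 0 in kidney, and to 3 in lung and 2 in ovary, the same counts as without the BIIB array in those 2 tissues. Without its BIIB array it fell to 0 in heart and to 2 on the arrays labelled liver. Arrays of other tissues moved some counts too: heart had 2 calls without the BIIB array of kidney, lung or the liver label, or the one-cycle array of embryo or lung. Kidney had 3 without the one-cycle heart array. The arrays labelled liver had 3 without their one-cycle array and 8 without the BIIB kidney array or either array labelled brain, and ovary had 8 without the BIIB kidney array. Spleen had 8 or more calls when any array was left out. The lone array of a tissue is then assumed to vary like the other tissues. The calls that held whichever of the 16 arrays was left out were those of Sfrp4 in ovary, Sfrp2 in embryo, Fzd6 in lung, Dkk3 on the arrays labelled liver, Dkk3 and Fzd6 on those labelled brain, and Sfrp2, Fzd2, Fzd4, Fzd6 and Dkk3 in spleen, each by its brightest probe set. Quantile normalization moved the median over all probe sets by 0.24 on the arrays labelled brain, where 7 members were then called lower and none higher. It moved that median by -0.12 in ovary and by -0.10 in embryo.

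Among the ligands, Wnt4 stood highest in ovary and embryo. Its signal in ovary was 4887 by one-cycle and 5376 by BIIB, and in the other 14 arrays it ran from 28.6 to 3689 with a median of 575. The ovary arrays lay above all others, and the change was 2.96 ± 0.53 (SE, log2, adjusted p = 0.00266). It was not called without the BIIB ovary array (2.90, adjusted p = 0.062). In embryo Wnt4 had signals of 3689 and 3427, above all other arrays except those of ovary, and a change of 2.37 ± 0.53 (adjusted p = 0.00825), which was lost without either embryo array (2.45 and 2.29, adjusted p = 0.098 and 0.082). In spleen Wnt4 was among the lowest, at 104 and 28.6, and fell by 2.54 ± 0.53 (adjusted p = 0.00256; -2.19 and 0.064 without the BIIB array). The 2 protocols did not give the same order at the low end. Heart had 534 by one-cycle and 51.2 by BIIB, kidney 112 and 616, and the arrays labelled brain 76.4 and 518.5. The heart call (-1.55 ± 0.53, adjusted p = 0.0472) was lost when any of 12 arrays was left out, with -0.45 without the BIIB heart array, and the call on the arrays labelled brain (-1.46 ± 0.53, adjusted p = 0.0426) when any of 9 was, with -0.52 without their one-cycle array.

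Wnt2 was highest in lung, at 2112 by one-cycle and 1275 by BIIB, and both lung arrays exceeded the other 14 (18.1 to 1099, median 318). Its mean over those 14 was under 500, so it passed the filter through lung. Without the one-cycle lung array it fell below the filter and was not tested. The change was 2.03 ± 0.47 (adjusted p = 0.0075) and was not called without the BIIB lung array (1.64, adjusted p = 0.159). Wnt11 was highest in heart under each protocol, at 1457.5 and 576 (next to 572 on the BIIB array labelled brain), and its range overlapped that of the other arrays (23.3 to 1175, median 507). It passed the filter through heart, and without the one-cycle heart array it fell below the filter and was not tested. Its heart call (1.06 ± 0.32, adjusted p = 0.0312) was lost without the BIIB heart array (1.13, adjusted p = 0.156), without any of 3 other arrays, where the change was under 2-fold, without the arrays labelled brain and liver (0.97, adjusted p = 0.0501), and with a pseudocount of 25 or 500. Wnt11 was low on the arrays labelled liver, at 287 and 23.3 (-1.33 ± 0.32, adjusted p = 0.00618; -1.09 and 0.122 without the BIIB array), and in spleen, at 262.7 and 45.2 (-1.27 ± 0.32, adjusted p = 0.00835; lost without either spleen array). Wnt6, the remaining tested ligand, was called in no tissue. Its highest signals were the 2 of ovary (1211 and 2082), above all other arrays, with a change of 1.86 ± 0.63 that missed the threshold (adjusted p = 0.061).

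The other 15 ligands were too dim for the test by the mean of the 16 arrays. Some were bright in a single tissue, and the fit without the filter gives their changes. Wnt16, at 714 and 2415 in ovary against 11.1 to 689 elsewhere (median 36.3), changed there by 2.71 ± 0.42 (adjusted p = 0.00117). Wnt10b stood at 709 and 815 in ovary and at no more than 187 on any other array, a change of 2.27 ± 0.26 (adjusted p = 0.000124). For Wnt5a, a ligand known for signalling outside the canonical branch, both probe sets were called in ovary, but the brighter one read 2581 by one-cycle and 509 by BIIB, and the latter lay inside the range of the other arrays (17.3 to 595). Wnt7a had signals of 1489 and 2318 on the arrays labelled liver, which carry the brain markers, against 8.5 to 1037 elsewhere (2.54 ± 0.42, adjusted p = 0.000633). Wnt7b read 1405 and 607 there (1.36 ± 0.33, adjusted p = 0.0078), with other arrays from 16.6 to 1251. Wnt3a was highest in lung under both protocols, at 1017 and 483, against 22.3 to 651 on the other arrays. Wnt1, Wnt8b and Wnt9a reached 500 on none of the 16 tissue arrays.

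Promoter sequence was taken from the RefSeq promoter table (assembly GRCm38.p6) for some members called in the tissues, namely Wnt4, Wnt2, Sfrp2 and Frzb. The RefSeq table also holds other called members, among them Fzd4, Fzd7 and Wnt11, whose sequences are not printed. Each line gives the 250 bases before the annotated start, 5′ to 3′ on the strand of the gene, with matches to the motifs searched in capitals on either strand: the Tcf/Lef core CTTTGA, the TATA box TATAAA, the nuclear receptor element AAGGTCA, the GATA motif AGATAA and the GC box GGGCGG.
Wnt4 (chr4:137277385-137277634, plus strand): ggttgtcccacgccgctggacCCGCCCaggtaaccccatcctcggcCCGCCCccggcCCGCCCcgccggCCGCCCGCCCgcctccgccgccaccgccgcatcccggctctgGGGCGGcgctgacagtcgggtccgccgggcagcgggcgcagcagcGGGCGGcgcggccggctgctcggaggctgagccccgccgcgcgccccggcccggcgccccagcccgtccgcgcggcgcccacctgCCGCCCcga
Sfrp2 (chr3:83766071-83766320, plus strand): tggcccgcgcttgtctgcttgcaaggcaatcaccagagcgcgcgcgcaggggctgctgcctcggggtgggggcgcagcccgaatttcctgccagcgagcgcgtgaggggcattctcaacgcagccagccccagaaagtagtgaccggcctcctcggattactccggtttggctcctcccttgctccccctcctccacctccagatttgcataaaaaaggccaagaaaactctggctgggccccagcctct
Wnt2 (chr6:18030446-18030695, minus strand): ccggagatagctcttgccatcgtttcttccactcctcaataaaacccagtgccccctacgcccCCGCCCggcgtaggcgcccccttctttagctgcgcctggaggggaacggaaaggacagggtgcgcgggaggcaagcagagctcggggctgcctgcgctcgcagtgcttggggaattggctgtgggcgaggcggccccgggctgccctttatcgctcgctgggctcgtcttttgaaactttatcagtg
Frzb (chr2:80447397-80447646, minus strand): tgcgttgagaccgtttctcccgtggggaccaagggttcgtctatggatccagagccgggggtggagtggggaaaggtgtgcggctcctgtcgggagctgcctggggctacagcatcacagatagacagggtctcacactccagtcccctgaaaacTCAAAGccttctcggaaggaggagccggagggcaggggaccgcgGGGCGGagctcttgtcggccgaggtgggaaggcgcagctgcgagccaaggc
Wnt4 and Sfrp2, both called higher in embryo, differ in these windows: that of Wnt4 is 85.2% G and C and holds 8 GC box matches, and that of Sfrp2 is 63.6% G and C and holds none of the 5 motifs. Over the 27 member genes in the table, 20 had a GC box match, against 32.7% of all 32851 promoters, and 5 had CTTTGA (13.8% of all), 5 TATAAA (12.4%), 3 AGATAA (9.99%) and 1 AAGGTCA (4.08%). A match describes the letters alone.

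**Figure D2:**
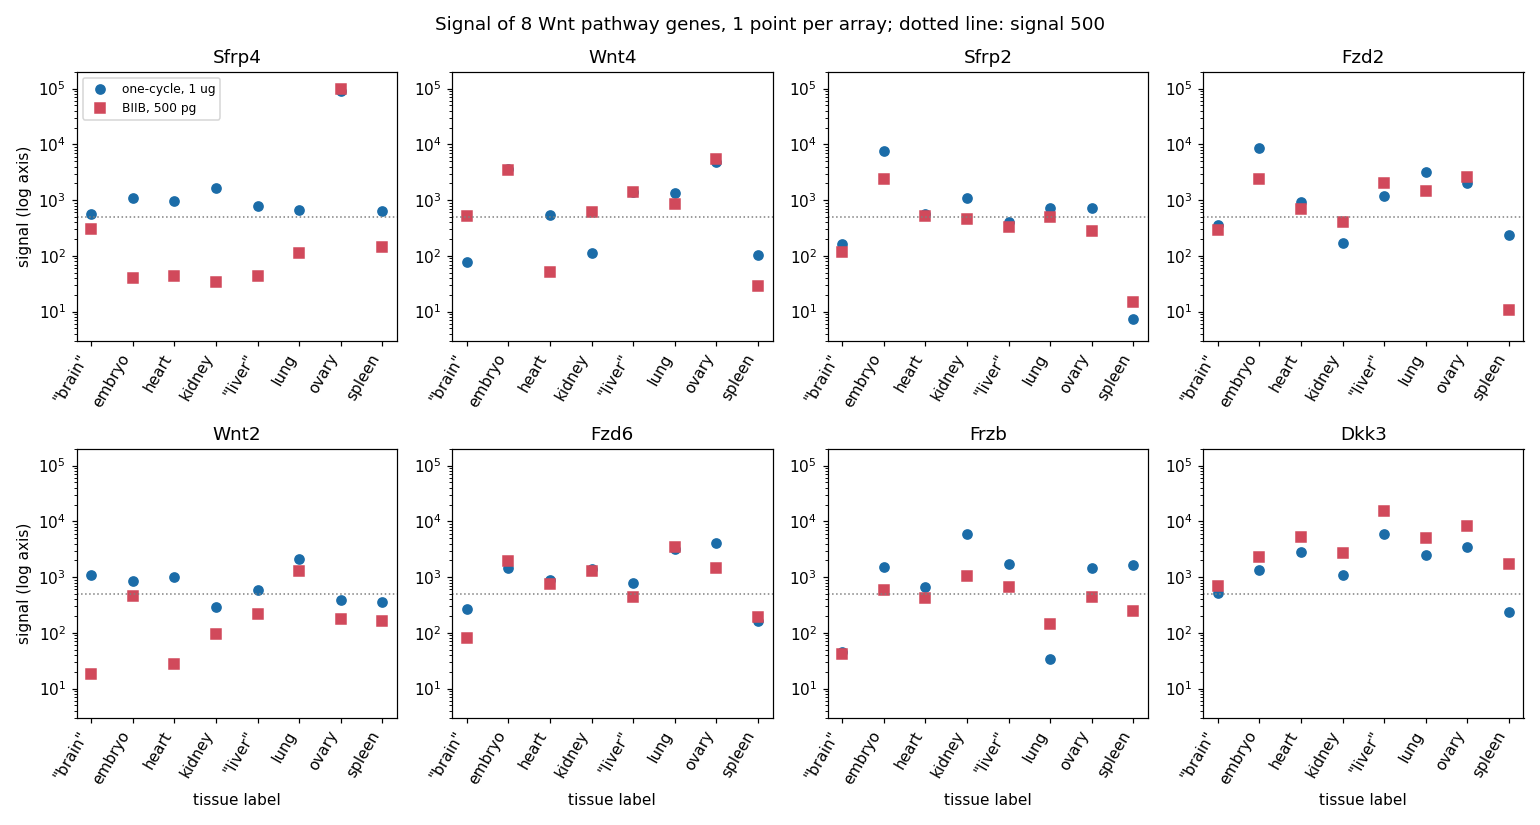
Signal (log axis) of 8 members on the 16 tissue arrays, with 1 point per array, circles for one-cycle and squares for BIIB, and a dotted line at a signal of 500. Sfrp4 in ovary, Sfrp2 in embryo and Wnt2 in lung lie above every other array of the same panel, and Wnt4 is high in embryo and ovary on both protocols.

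Among the Frizzled receptors, Fzd2 was high in embryo, lung and ovary and low in kidney and spleen. All 3 of its probe sets were called higher in embryo, and 1 of them (1418534_at) passed the filter through embryo. The brightest read 8473 by one-cycle and 2355 by BIIB there, against 10.5 to 3205 on the other arrays (median 809), so the BIIB value overlapped them. The change of 2.43 ± 0.45 (adjusted p = 0.00263) was 1.63 without the one-cycle embryo array (adjusted p = 0.089). In spleen the same probe set read 237 and 10.5 (-2.58 ± 0.45, adjusted p = 0.000851), and in kidney 171 and 406 (-1.62 ± 0.45, adjusted p = 0.0191; -0.92 and 0.350 without the one-cycle array). It was also called lower on the arrays labelled brain, at 364 and 288 (-1.41 ± 0.45, adjusted p = 0.0251), a call lost without either of those arrays (-1.49 and -1.33, adjusted p = 0.128 and 0.165) and with quantile normalization (-1.11, adjusted p = 0.114). Lung and ovary were called higher by 1 of the 3 probe sets each, the one ending in s_at (1.60 ± 0.38 and 1.30 ± 0.38).

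Fzd6 and Fzd7 were high in lung. Fzd6, a receptor known for planar polarity, read 3249 and 3476 in lung, where the other arrays ran from 82.4 to 4145 with a median of 837, and only the one-cycle ovary array was higher. Its change in lung was 1.99 ± 0.33 (adjusted p = 0.000946). In ovary it read 4145 by one-cycle and 1435 by BIIB (1.499 ± 0.33, adjusted p = 0.00799; 0.86 and 0.226 without the one-cycle array; 1.09 and 0.054 without the arrays labelled brain and liver). It was low in spleen, at 161 and 195 (-2.04 ± 0.33, adjusted p = 0.000473), and on the arrays labelled brain, at 267 and 82.4 (-2.13 ± 0.33, adjusted p = 0.000305). Fzd7 read 2351 and 3739 in lung, above all 14 other arrays (227 to 1866, median 766), with a change of 1.77 ± 0.39 (adjusted p = 0.00566; 1.24 and 0.174 without the BIIB lung array). In heart Fzd7 read 684 and 227, and its call (-1.13 ± 0.39, adjusted p = 0.0487) was lost when any of 10 arrays was left out, with -0.60 without the BIIB heart array. Fzd4, a receptor known for its part in blood vessel growth, was highest in lung under both protocols, at 3359 and 2100 (1.40 ± 0.35, adjusted p = 0.0122; 0.93 and 0.281 without the BIIB lung array). The summed signal of 5 endothelial markers was 97037 to 101222 in lung and at most 25620 elsewhere, and its part in this was not tested. Fzd4 was low in spleen (604 and 146; -1.62 ± 0.35, adjusted p = 0.00332) and on the arrays labelled liver (756 and 210; -1.29 ± 0.35, adjusted p = 0.0116), where the call was lost without either array. Fzd8 was called in spleen alone, at 218 and 328, below all other arrays (-1.38 ± 0.41, adjusted p = 0.0188; -0.86 and 0.290 without the one-cycle array). Of the 4 Frizzled genes with no tested probe set, Fzd5 read at most 270 on any array and Fzd3 at most 1319. Fzd1 read 1017 and 1027 in lung (8.6 to 1110 elsewhere) and Fzd9 1291.5 and 651 in embryo (8.4 to 682 elsewhere), both with overlap.

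Lrp6, the co-receptor that Dickkopf proteins bind, varied less. Its brighter probe set was lowest on the arrays labelled liver, at 683 and 492, and in spleen, at 803 and 610, and it was highest in kidney by one-cycle (3177) and in lung by BIIB (4090). It was called lower on the arrays labelled liver (-1.51 ± 0.31, adjusted p = 0.00227; -1.20 and 0.074 without the BIIB array) and in spleen (-1.25 ± 0.31, adjusted p = 0.00725; -0.97 and 0.145 without the BIIB array). It was called higher in lung by 1.01 ± 0.31 (adjusted p = 0.0328), a call lost when any of 8 arrays was left out, with 0.67 without the BIIB lung array. The second Lrp6 probe set (1451022_at) was called higher in kidney, where the brighter one was not called. It read 1850 by one-cycle and 1329 by BIIB there, against 218 to 1338 on the other arrays (median 704.5). Lrp5, the homologue of Lrp6, passed no filter and read at most 509.

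Among the secreted inhibitors, Sfrp4 in ovary and Sfrp2 in embryo lay above all other arrays. Sfrp4, a Wnt-binding protein, read 92332 by one-cycle and 96881 by BIIB in ovary, and 33.6 to 1674 on the other 14 arrays, with a median of 438. Its change of 7.69 ± 0.53 (adjusted p = 3.33e-06) was the largest of any member in any tissue and stayed between 6.55 and 8.83 when each array was left out. Below ovary the protocols differed: by one-cycle the other 7 tissues lay between 574 and 1674, and by BIIB between 33.6 and 302. The summed signal of 4 smooth muscle markers was 124524 to 185449 in ovary and at most 133742 elsewhere, and its part in the result was not tested.

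Sfrp2 was highest in embryo, at 7533 and 2358 against 7.3 to 1080 elsewhere (median 433), with no overlap. Its mean over the other arrays was under 500, so it passed the filter through embryo, the tissue of its higher call. The change was 3.25 ± 0.31 (adjusted p = 2.1e-05), and 2.65 to 3.85 when each array was left out. Its lowest signals were those of spleen, 7.3 and 14.6, also without overlap (-2.47 ± 0.31, adjusted p = 9.53e-05). Its profile over the 8 tissues was the most alike between protocols among the tested members (r = 0.97 over 8 tissues, which share RNA source and array type). Frzb was highest in kidney, at 6043 by one-cycle and 1050 by BIIB, against 34.6 to 1730 elsewhere. Frzb passed the filter through kidney for its dimmer probe set. Both of its probe sets were called there, the brighter by 2.21 ± 0.48 (adjusted p = 0.00526; 1.44 and 0.164 without the one-cycle kidney array). Frzb was low in lung, at 34.6 and 143 (-2.03 ± 0.48, adjusted p = 0.0094; -0.997 and 0.277 without the one-cycle lung array), and on the arrays labelled brain, at 46.1 and 42.5 (-2.35 ± 0.48, adjusted p = 0.00231; -1.77 and 0.074 without the one-cycle array).

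Sfrp1 read 2258 and 6894 in kidney and 2810 and 5599 in ovary by its brightest probe set. The kidney call (1.72 ± 0.56, adjusted p = 0.0382) was lost when any of 9 arrays was left out, with 1.06 without the BIIB kidney array. On the arrays labelled brain it read 604 by one-cycle and 20.6 by BIIB (-2.45 ± 0.56, adjusted p = 0.00427), and -0.89 (adjusted p = 0.193) without the BIIB array. Dkk3, a divergent Dickkopf member, was highest on the arrays labelled liver, at 5972 and 15447, with a median of 2371 on the other arrays (240 to 8192). The change was 2.23 ± 0.31 (adjusted p = 0.000159). It was lowest in spleen by one-cycle (240) and on the array labelled brain by BIIB (693), and was called lower in both (-1.84 ± 0.31, adjusted p = 0.00072, and -2.06 ± 0.31, adjusted p = 0.000296). In ovary it was called higher by 1.29 ± 0.31 (adjusted p = 0.0146), a call lost without either ovary array. Both Dkk3 probe sets were called the same way on the arrays labelled brain and liver and in spleen, but the ovary call was of the brighter one alone. In lung the second (1417312_at) alone was called higher. It read 4376 and 2472 there, against 194 to 6286 on the other arrays (median 1297). Of the dim inhibitors, Dkk2 read 1253 and 1949.5 in kidney and 8.0 to 762 elsewhere (2.60 ± 0.40, adjusted p = 0.000587 without the filter). Dkkl1 read 718 and 1337 in embryo (37.7 to 735 elsewhere) and Wif1 820.5 and 419 (4.5 to 458 elsewhere), and both overlapped the other arrays. Dkk4 reached 500 on no tissue array.

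The tissue profile of a member could be compared between protocols, since both were made from the same RNA. Over the 8 tissues the correlation of log2 values between one-cycle and BIIB had a median of 0.79 over the 21 tested members (lowest -0.01, for Wnt6) and of 0.43 over the 38 untested ones. Over all 15180 tested probe sets the median was 0.80. The same tissue was highest under both protocols for 13 of the 21 tested members (61.9%), 12 of the 38 untested (31.6%) and 61.9% of all tested probe sets. These correlations describe arrays that share the RNA and the array design.

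Other genes of the pathway were followed in 4 lists, by the brightest probe set of each gene. Some genes stand in more than 1 list. Of the 10 genes on the array for Wnt secretion, R-spondins and their receptors 5 were tested, of the 31 for beta-catenin signal transduction 25, of the 14 for planar polarity 9 and of the 15 target genes 10. In lung 6 of 10 target genes were called higher and none lower (12.4% of all probe sets higher), with a median of 1.65 (0.05 over all probe sets tested). They were Nkd1, Nrcam, Jun, Cd44, Ccn4 and Ccnd1. Some of these genes are also known for roles in adhesion, proliferation or stress. Macrophage markers were high in lung as well (summed signal of 5 genes 175214 to 264933, against 12195 to 231299 elsewhere), and their part in the result was not tested. In kidney 2 targets were called higher and 4 lower (23.0% of all probe sets called), in spleen 2 higher and 4 lower (34.2%), and in ovary 3 higher and none lower (8.83% of all higher). On the arrays labelled brain, 6 of 25 transduction genes and 5 of 9 polarity genes were called lower and none higher. There 24.0% of all probe sets were called lower, so the transduction count lay at the background.

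The 4 largest called tissue changes of each list were as follows. Lgr5, a receptor for R-spondins, rose in ovary by 2.64 ± 0.38 (adjusted p = 0.000706). Porcn, the enzyme that attaches the lipid to Wnt proteins, was higher on the arrays labelled liver (2.22 ± 0.39, adjusted p = 0.000748). Notum, an enzyme that inactivates Wnt proteins, was higher on the arrays labelled brain (2.55 ± 0.37, adjusted p = 0.0002), which carry the liver markers, and Wls, the carrier needed for Wnt secretion, was lower there (-2.34 ± 0.32, adjusted p = 0.000142). In the transduction list Nkd1, a feedback inhibitor, rose in lung by 2.42 ± 0.57 (adjusted p = 0.00853) and the co-repressor gene Tle2 in ovary by 2.12 ± 0.30 (adjusted p = 0.000598), while Tle1 fell in spleen (-2.69 ± 0.61, adjusted p = 0.00408) and Nkd2 in kidney (-2.09 ± 0.64, adjusted p = 0.0295). In the polarity list Celsr2, an adhesion receptor, was highest on the arrays labelled liver (2.90 ± 0.38, adjusted p = 0.0001) and lowest in spleen (-2.46 ± 0.38, adjusted p = 0.000397). Prickle1 rose in lung by 2.44 ± 0.36 (adjusted p = 0.000533) and was lower on the arrays labelled brain (-1.88 ± 0.36, adjusted p = 0.0016). Among targets, the adhesion gene Nrcam was higher on the arrays labelled liver (4.78 ± 0.55, adjusted p = 3.3e-05) and in ovary (3.33 ± 0.55, adjusted p = 0.00153) and lower in heart (-3.21 ± 0.55, adjusted p = 0.00113), and Cd44 was lower in kidney (-3.19 ± 0.26, adjusted p = 3.63e-06).

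Universal RNA, compared with the mean of the 8 tissues by the same 2 protocols and inputs, carried more Wnt10a, Fzd2, Wnt4 and Fzd7 and less Sfrp1, Fzd4, Frzb and Dkk3. Of 18 members tested 6 were called higher and 5 lower, where 28.6% of all probe sets were called. Wnt10a read 2200 to 2480 in the 4 one-cycle arrays of universal RNA and 341 to 1122 in the 4 BIIB arrays of 500 pg, and a mean of 214 in the tissues, where no array exceeded 692 (2.08 ± 0.22, adjusted p = 1.41e-07). It passed the filter through universal RNA alone. All 3 Fzd2 probe sets were higher (1.53 to 1.78), with ranges that overlapped through embryo. Wnt4 rose by 1.38 ± 0.24 (adjusted p = 5.94e-05). Fzd7 rose by 1.08 ± 0.19 (adjusted p = 7.9e-05) and was under 2-fold with quantile normalization (0.94), without the BIIB heart array (1.00), without the arrays labelled brain and liver (0.95) and on the one-cycle arrays alone (0.74). Lower in universal RNA were Sfrp1 (-2.23 ± 0.32, adjusted p = 6.45e-06), Fzd4 (-1.83 ± 0.23, adjusted p = 1.32e-06), Frzb (-1.76 ± 0.35, adjusted p = 0.00023) and Dkk3 (-1.57 ± 0.24, adjusted p = 1.35e-05). Sfrp1, Fzd4 and Frzb, with means of 214, 289.7 and 121 in universal RNA, passed the filter through the tissues.

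Next, the protocols were compared on the same RNA. Across the 16 tissue arrays, 7 of 21 members were called lower by BIIB from 500 pg than by one-cycle from 1 ug, and 1 higher (24.4% and 12.3% of all probe sets). Lower by BIIB were Sfrp4 (-1.92 ± 0.35, adjusted p = 0.000532), whose 2 ovary signals were alike, Fzd4 (-1.47 ± 0.23, adjusted p = 0.000189), Wnt2 (-1.36 ± 0.31, adjusted p = 0.00234) and a dimmer Sfrp1 probe set (-2.11 ± 0.34, adjusted p = 0.000201). The brightest Sfrp1 probe set (1448395_at) was not called. It read higher by BIIB in embryo, heart, kidney, lung, ovary and spleen, and lower on the arrays labelled brain and liver. Fzd4 read 604 to 3359 by one-cycle and 146 to 2100 by BIIB. Dkk3 was the exception, at 240 to 5972 by one-cycle and 693 to 15447 by BIIB (1.13 ± 0.21, adjusted p = 0.000551), and was under 2-fold without either spleen array (0.96). The second Dkk3 probe set (1417312_at) ran the other way, with a mean of 2472 by one-cycle and 1250 by BIIB (-0.76 ± 0.29, adjusted p = 0.0406), a change under 2-fold. The BIIB tissue arrays had a lower median signal over all probe sets (542 against 814), whose part was not tested. With quantile normalization the overall median went from -0.27 to -0.03, which left 1 member called higher and 4 lower. Without the one-cycle array of kidney or spleen 5 were called. The Frzb and Wnt11 calls among the 7 (-1.06 and -1.04) were under 2-fold with it.

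On universal RNA each protocol at its largest input was compared with one-cycle. BIIB from 5 ng gave 4 of 13 members lower and none higher (27.1% of all probe sets lower). Wnt10a read 637, 489, 292 and 686 by BIIB, against 2220, 2480, 2230 and 2200 by one-cycle, and fell by 1.93 ± 0.20 (adjusted p = 6.38e-06). Sfrp2 read 395, 446, 765 and 489 against 1804, 1570, 1589 and 1501, and fell by 1.45 ± 0.17 (adjusted p = 1.84e-05). Neither gene's groups overlapped. Sfrp4 read 371, 384, 219 and 26.5 against 1290, 1013, 901 and 598 (-1.63 ± 0.36, adjusted p = 0.00176), and Wnt6 153, 295, 430 and 47.6 against 1023, 868, 680 and 558 (-1.45 ± 0.32, adjusted p = 0.00178). Both read under 500 on every BIIB array and passed the filter through one-cycle, so nothing is read from the direction of these calls. Wnt6 fell below the filter when any 1 of the one-cycle arrays was left out. The two-cycle kit from 500 ng gave 2 of 15 lower (10.4% of all probe sets lower, 1.23% higher), Sfrp2 at 594 and 616 (-1.25 ± 0.10, adjusted p = 4.7e-05) and the second Lrp6 probe set. Sfrp2 was under 2-fold with quantile normalization for both BIIB (-0.97) and two-cycle (-0.96).

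Ovation and RiboAmp HS split the probe sets of Fzd2. By one-cycle the first (1418532_at) read 4719, 4410, 3880 and 3797, the second (1418533_s_at) 3348, 3479, 2675 and 3128, and the third (1418534_at) 1926, 2194, 2187 and 1826. By Ovation from 500 ng they read 183 and 498, 376 and 174, and 7370 and 7488. By RiboAmp HS they read 618 and 754, 851 and 928, and 9841 and 7637. The first and second probe sets thus fell while the third rose, with no overlap: by -3.30 ± 0.25, -3.08 ± 0.21 and 1.81 ± 0.11 in Ovation (adjusted p = 8.16e-06, 3.91e-06 and 2.82e-06), and by -2.42 ± 0.13, -1.69 ± 0.13 and 2.03 ± 0.14 in RiboAmp HS (adjusted p = 1.24e-06, 6.57e-06 and 3.72e-06). Quantile normalization kept these directions and calls (-2.93, -2.71 and 1.90, and -1.77, -1.04 and 2.12). By Ovation the first and second probe sets read under 500, so they passed the filter through one-cycle. With two-cycle and with BIIB from 5 ng, none of the 3 was called. The third probe set stayed at 581.7 to 7520 at lower Ovation inputs, while the other 2 stayed at 19.1 to 782. With RiboAmp HS from 50 ng, 1 of 2 arrays read 2845 and 3973 on the first and second probe sets and the other 604 and 995. The files give no probe positions, so where on the transcript each probe set lies was not used here.

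Lrp6 split likewise. Its second probe set (1451022_at) read 1084, 985, 874 and 980 by one-cycle, and it fell with two-cycle (360 and 32.3; -1.998 ± 0.37, adjusted p = 0.00306), Ovation (222 and 483; -1.26 ± 0.21, adjusted p = 0.000679) and RiboAmp HS (13.4 and 257; -2.26 ± 0.34, adjusted p = 0.000354). In Ovation this was under 2-fold with quantile normalization (-0.74). The second probe set read under 500 on each of these kit arrays, so it passed the filter through one-cycle. The brighter probe set (1428500_at) read 1884, 2304, 1848 and 2169 by one-cycle and rose in Ovation, at 4496 and 4693 (1.12 ± 0.12, adjusted p = 5.76e-05). It read more with less RNA in that kit: 7857 and 7793 from 50 ng, 13821 and 14780 from 5 ng, 39815 and 61604 from 500 pg, then 8157 and 17198 from 50 pg. In the other kits and BIIB it showed no such course at matched inputs, with 489 to 2884 from 500 pg. These lower inputs were not tested, since 2 arrays an input differ widely in spread. In all, Ovation gave 2 of 15 members higher and 6 lower, where 15.1% and 31.9% of all probe sets were called (47.1% in all), and RiboAmp HS 1 higher and 3 lower, where 14.1% and 33.9% were (48.0% in all). Quantile normalization moved the median of all probe sets by 0.31 and 0.48 in these comparisons, and the member counts became 4 higher and 3 lower, and 5 higher and 3 lower. The other Ovation calls were of Sfrp4 (-2.02 ± 0.25, adjusted p = 0.000114), Wnt10a (-1.32 ± 0.17, adjusted p = 0.00017) and Fzd6 (-1.09 ± 0.26, adjusted p = 0.00493), the last lost without Ovation replicate 2 (-0.60). With quantile normalization Wnt10a was under 2-fold (-0.82) and Fzd6 was not called (-0.61, adjusted p = 0.0504). These kit comparisons share their one-cycle arrays.

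**Figure D3:**
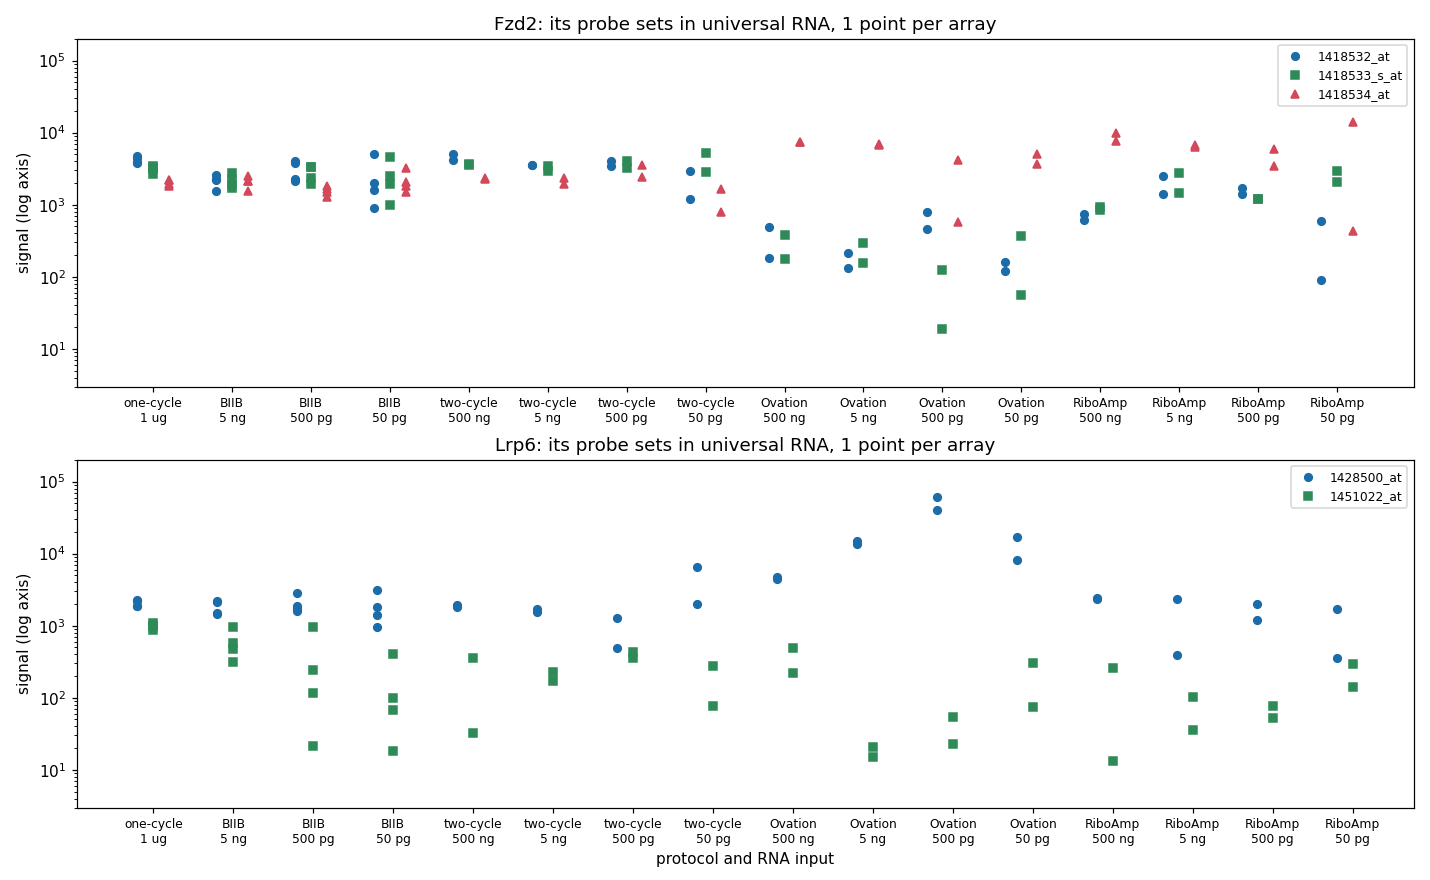
Signal (log axis) of the 3 Fzd2 and 2 Lrp6 probe sets in universal RNA by protocol and input, with 1 point per array. With Ovation and RiboAmp HS the third Fzd2 probe set lies above the other 2 from 500 ng, and the brighter Lrp6 probe set climbs from 4496 and 4693 to 39815 and 61604 between 500 ng and 500 pg of RNA with Ovation.

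With the BIIB protocol, lowering the input from 5 ng to 500, 50 or 10 pg gave no called member among 11, 10 and 13 tested (limma). At an unadjusted p under 0.05 there were 1, 2 and 1. Over all probe sets 0, 1.02% and 12.2% were called. At 500 pg the changes of Fzd2, Lrp6 and Wnt4 were 0.45 (nominal 95% interval -0.05 to 0.95), 0.12 (-0.34 to 0.58) and 0.37 (-0.12 to 0.87). A change of 2-fold lay outside these intervals, which cover these genes alone. The intervals use a normal quantile, which is too narrow with 4 arrays a group. For Fzd2, with its upper end nearest to 2-fold, such a change is therefore not excluded. At 10 pg the intervals were wide, as for Wnt4 (-2.19 to 1.28), and such a change lay inside them. Sfrp2 at 10 pg read 2066, 642, 2597 and 2681, against 395, 446, 765 and 489 from 5 ng (1.58 ± 0.53, adjusted p = 0.086). The median SD between replicates of members at or above 500 was 0.16 by one-cycle, and by BIIB 0.34 with 5 ng, 0.38 with 500 pg, 0.77 with 50 pg and 1.79 with 10 pg, on the log2 scale.

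In sorted cells the members were variable. Their median signal was 431 in lymphocytes (973 over all probe sets) and 94.8 in RAW267 (469), against 238 in the tissues (674). On no lymphocyte array did Lrp5 reach 500, and it was the only such member (1.69%, against 0.499% of all probe sets). Of the 59 probe sets none reached 500 on all 18 lymphocyte arrays (14.5% of all did), and 2 (3.39%) did on all 11 RAW267 arrays (29.2% of all). These were Fzd7 (1450044_at; 570 to 4877, median 1291) and Lrp6 (1428500_at; 1267 to 3610, median 1682). In RAW267, 43 of 59 members (72.9%) reached 500 on no array, against 32.4% of all probe sets. The RAW267 arrays carried macrophage markers, with a summed signal of 344800 to 732961 for 5 genes against 1875 to 9765 in lymphocytes, and T cell markers at 420 to 2217 against 11587 to 198533. The 3 members that could be tested for a trend with RAW267 cell number were not called (2.94% of all probe sets were, 2.26% higher and 0.679% lower with more cells). Fzd7 changed by -0.34 ± 0.61, Lrp6 by -0.58 ± 0.34 and Sfrp4 by -1.67 ± 1.26 from 50 to 10000 cells. Sfrp4 passed the filter through 1 array of 50 cells, which read 10997 where its replicate read 75.1.

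RAW267 arrays of 100 and 500 cells were compared with the 18 lymphocyte arrays. Of 32 members tested 5 were called lower and none higher, where 7.07% of all probe sets were called lower and 4.04% higher. The filter took the mean over 18 lymphocyte and 3 RAW267 arrays, and all 5 called probe sets read under 500 on each of the 3 RAW267 arrays. They passed through the lymphocytes, so nothing is read from the direction of this count. Fzd9 read 62.6 and 24.4 (500 cells) and 89.1 (100 cells) in RAW267. In lymphocytes it ran from 150 to 6901 with a median of 1930. No array of one set overlapped the other, and the change was -3.56 ± 0.70 (adjusted p = 0.00134), called whichever of the 21 arrays was left out and with quantile normalization (-3.03). The other calls were of 1 Fzd7 probe set (1450043_at; -2.35 ± 0.64, adjusted p = 0.0178), Sfrp2 (-2.32 ± 0.65, adjusted p = 0.0216), Wnt6 (-2.02 ± 0.55, adjusted p = 0.0179) and 1 Fzd2 probe set (-1.91 ± 0.61, adjusted p = 0.0411). The second Fzd7 probe set (1450044_at) ran the other way and was not tested, with 570 to 1359 in these RAW267 arrays and a lymphocyte median of 152 (41.7 to 1473). Wnt6 read 235 to 296 in these RAW267 arrays and 237 to 2897 in lymphocytes. The lymphocyte arrays had a higher median signal over all probe sets (973 against 469 in RAW267), and the median change of all probe sets was -0.45. Quantile normalization moved it to -0.01 and left 1 member called lower and none higher. The part of these levels in the result was not tested. Leaving out any 1 of the 3 RAW267 arrays left 1 or 2 calls.

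Between unmixed B and T cells, 2 arrays of 100 cells each, none of 37 members was called (limma, with 3 at an unadjusted p under 0.05), where 0.240% of all probe sets were (0.0764% lower in B cells). The spread of this fit came from all 12 arrays of 100 lymphocytes, mixed ratios included. Lrp6 (1428500_at) read 1703 and 3574 in T cells and 162 and 161 in B cells, a change of -3.18 ± 1.12 (adjusted p = 0.575). In the 500-cell arrays it read 1327 in unmixed T cells and 244 in unmixed B cells, but 2597 with 100 T and 400 B cells. Frzb and Wnt3 were the other 2, higher in B cells by 2.77 ± 1.14 and 2.90 ± 1.22 (adjusted p = 0.669 and 0.684). The median SD of members between replicates of 100 lymphocytes was 0.65 to 1.57, on the log2 scale.

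**Figure D4:**
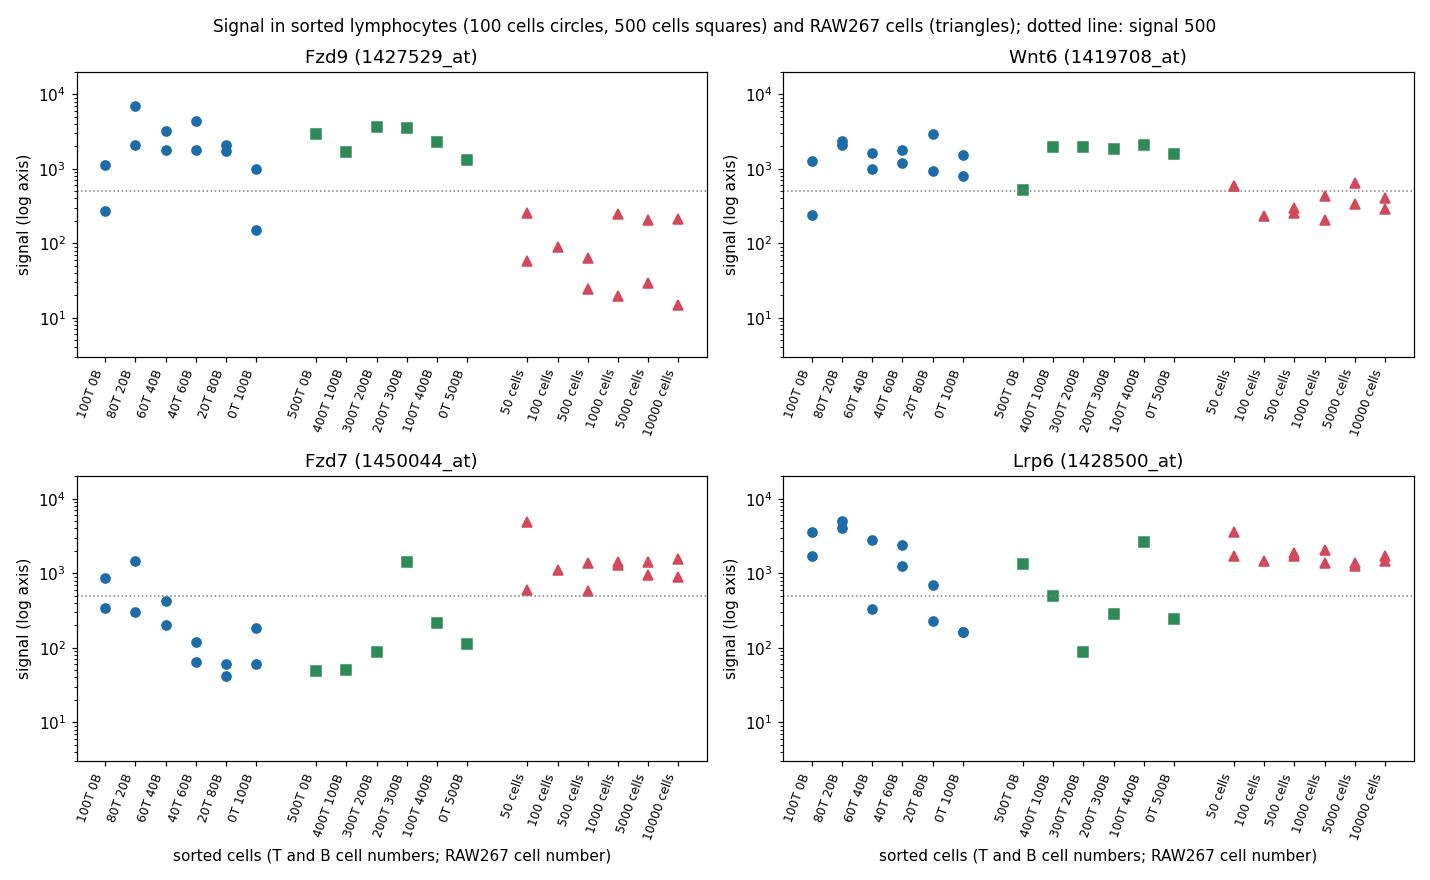
Signal (log axis) of Fzd9, Wnt6, Fzd7 and Lrp6 in the 18 lymphocyte arrays, ordered by T and B cell number (circles 100 cells, squares 500 cells), and in the 11 RAW267 arrays by cell number (triangles), with a dotted line at 500. Fzd7 and Lrp6 stay above 500 on every RAW267 array, and Fzd9 lies at 258.6 or less on all of them.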

How the data were processed

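Per the submitters' processing notes, the authors made the values with MAS5. The deposited table holds 1 linear signal intensity per probe set and array for 103 arrays. The deposited signals have a trimmed mean of 2500.23 to 2502.45 on every array (2% trimmed at each end), so their scale is common, and the other MAS5 settings are not given in the sources used here. Depth does not apply to arrays, and their number limits the precision. Probe sets were named through GEO's platform annotation, which gives 1 symbol for 20393 probe sets, several for 691 and lists 21084 in all, with 1606 unlisted. No array column was identical to another.

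In R 4.3.3 with limma 3.58.1, 64 control probe sets were removed, leaving 22626, and log2(signal + 125) was fitted with lmFit and eBayes (two-sided) on probe sets with a mean signal of at least 500 over the arrays of each comparison. The pseudocount is 5% and the filter 20% of the common mean of 2501. A call was an adjusted p (limma, Benjamini-Hochberg) below 0.05 together with a 2-fold or larger change. Tissue fits held protocol as a covariate, the protocol comparison in tissues held tissue as a block, and RAW267 against lymphocytes held cell number. The steps were tested on simulated data. A gene was represented by the probe set with the highest mean over the tissue arrays, and up to 4 called genes per comparison, by size of change, were given in full, with every other member counted. The members and the gene lists were chosen with earlier results of these data known. Replicate numbers were checked for pairing by the correlation of their deviations from the group means. Only BIIB 500 pg against 5 ng had all 4 pairs above 0.1 (0.249, 0.143, 0.130 and 0.145), and the labels do not say what the number stands for. Promoters came from the RefSeq table of assembly GRCm38.p6, where 27 member genes matched.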

Additional observations from a re-analysis of the deposited data

Results flagged for a closer look

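Among the 17 member probe sets tested for it in 85 groups of 4 arrays of universal RNA, 5 groups held an array that stood apart from the other 3. Chance flags about 1 in 20 groups by this measure. Fzd4 (1419301_at) read 385.6 on BIIB 500 pg replicate 3, where the others read 3.6 to 22.3, and 203.8 on BIIB 50 pg replicate 4. Fzd7 (1450044_at) read 411.1 on BIIB 50 pg replicate 3. Sfrp1 (1448395_at) read 408.1 on BIIB 50 pg replicate 4. Wnt10a read 2479.9 on one-cycle replicate 2, where the others read 2199.5 to 2229.6.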

How the results depend on the processing

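The 67 single-gene calls were recomputed under each alternative: of 1376 values, 1226 kept their call, 150 lost it and 0 reversed. Of 103 counts of called members under settings other than leaving out an array, 81 stayed within 1.5 times. The rest follow, and the cause was not tested unless the setting itself tests more probe sets. Without the filter the counts were 10 in embryo, 8 on the arrays labelled liver, 10 in ovary, 17 for BIIB against one-cycle in tissues, 14 for BIIB 5 ng, 16 for Ovation, 11 for RiboAmp HS and 4 for two-cycle. With quantile normalization they were 5 for BIIB in tissues, 1 for RAW267 against lymphocytes, 1 for two-cycle, 8 for RiboAmp HS and 1 for BIIB 10 pg. It moved the share of all calls that were higher by over 10 percentage points in 8 comparisons: from 30.9 to 43.7% on the arrays labelled brain, 33.5 to 47.5% for BIIB in tissues, 36.4 to 57.9% for RAW267 against lymphocytes, 76.9 to 65.0% for RAW267 cell number, 33.7 to 47.3% for BIIB 5 ng, 32.2 to 46.4% for Ovation, 29.5 to 48.4% for RiboAmp HS and 5.999 to 27.3% for BIIB 10 pg. With a pseudocount of 25 the counts were 1 in heart, 2 in kidney and 9 for RAW267. With 500 they were 1 in heart, 3 for BIIB in tissues, 2 for RAW267, 2 for BIIB 5 ng and 1 for two-cycle. RAW267 against lymphocytes had 2 on arrays of 500 cells. Leaving out each array gave 4 to 11 (labelled brain), 1 to 6 (embryo), 0 to 5 (heart), 0 to 7 (kidney), 2 to 8 (labelled liver), 3 to 11 (lung), 2 to 8 (ovary), 8 to 13 (spleen), 5 to 10 (BIIB in tissues), 10 to 11 (universal RNA), 1 to 6 (RAW267 against lymphocytes), 3 to 5 (BIIB 5 ng), 2 to 3 (two-cycle), 8 to 11 (Ovation), 4 to 5 (RiboAmp HS) and 0 to 1 (BIIB 10 pg). The other 4 comparisons had 0 throughout.

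With the replicate number as a block, the counts were 4 for BIIB 5 ng, 9 for Ovation, 6 for RiboAmp HS, 3 for two-cycle and 0 for B against T cells, RAW267 cell number and BIIB at 500, 50 and 10 pg. Apart from BIIB 500 pg, the replicate numbers did not pair the samples. Leaving out the arrays labelled brain and liver from the protocol and universal RNA comparisons, and a block of replicates 1 and 2 against 3 and 4 in the BIIB inputs, were chosen after seeing the data. Most members lie near or below the filter, where the low signals limit what can be tested.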
